A study of Mus musculus with 22 samples.

Results

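The glutathione transferases described here are 10 mouse genes of the alpha (Gsta3, Gsta4), mu (Gstm1, Gstm2, Gstm4, Gstm5), theta (Gstt1, Gstt2) and pi (Gstp1) classes with the microsomal enzyme Mgst1. They were chosen by name, through the accession that each array probe carries, and were read by 17 probes, of the 20018 named genes and 55681 probes on the array. Transcripts were measured in FE1, a line of lung epithelial cells derived from the MutaMouse, a transgenic mouse that carries a reporter gene for mutations. All groups were cultures of this single line, kept for 24 h in the same medium, and were set apart by the concentration of Mitsui7, a commercial type of multi-walled carbon nanotube. The control (0 µg/ml) and the medium dose (25 µg/ml) had 5 arrays each, and the low dose (12.5 µg/ml) and the high dose (100 µg/ml) had 6 arrays each. On each of the 22 arrays the sample RNA carried the dye Cy5 and a commercial reference RNA pooled from mouse cell lines carried Cy3. Every level below is therefore a log2 ratio of sample to reference for that probe, and levels of different probes cannot be ranked against each other. The methods give 3 separate exposure experiments for the 5 or 6 arrays of a group, so some arrays of a group share an experiment. Which array belongs to which experiment is not given in the sources used here, so the p-values treat each array as a replicate, and fewer independent experiments than arrays stand behind them. RNA came from whole cultures, so fewer cells of a kind and less RNA per cell cannot be told apart.

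Glutathione transferases join the tripeptide glutathione to electrophiles such as epoxides, unsaturated aldehydes and halogenated compounds, which makes them soluble for export. The alpha, mu, theta and pi enzymes are soluble dimers, whereas Mgst1 sits in the membranes of the endoplasmic reticulum and mitochondria and also reduces lipid peroxides. In the lung the family is known for the handling of inhaled reactive chemicals and of lipid peroxidation products. Many of the genes are under the control of the transcription factor NRF2, through the antioxidant response element, and some under that of the aryl hydrocarbon receptor, through the xenobiotic response element.

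The arrays lay on 5 slides, of which slides 1 to 4 held all 4 groups, while only 1 array of the low and 1 of the high dose were on slide 5. Between 23688 and 39139 probes per array exceeded the level of the negative control spots, with no counts behind them, and the number of arrays limits the precision. Over 2308 probes called at any dose, with slide means removed, low dose replicate 1 resembled the mean of the medium dose most closely (r = 0.72) and low dose replicate 2 that of the control (r = 0.31). Medium dose replicates 1, 2, 3 and 5 were closest to the mean of the high dose, and high dose replicate 6 to that of the medium dose (r = 0.84, against 0.80 to its own group). Of the 6 epithelial markers listed, Krt8, Krt18 and Cldn7 were above the negative control level on all 22 arrays and Krt19 on 21, whereas Epcam was so on 10 and Cdh1 on none. All 8 mesenchyme markers listed were above that level on all 22 arrays.

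Promoter windows of 300 bases, from 250 bases before to 50 after the start site, were at hand for 8 of the 10 members (RefSeq, build GRCm38.p6). The 4 genes below are shown because Gstt1, Mgst1 and Gsta3 were the members with the largest decreases and Gstp1 is a member that did not pass the test. Each is printed 5′ to 3′ on the strand of the gene. Capitals mark matches, on either strand, to the antioxidant response element core TGACNNNGC, the xenobiotic response element core GCGTG or the AP-1 site TGANTCA, which can overlap one another. The Gstt1 window is chr10:75797682-75797981 (minus strand), and the first of 2 Mgst1 windows is chr6:138140277-138140576 (plus strand). That of Gsta3 is chr1:21240335-21240634 (plus strand) and that of Gstp1 is chr19:4037863-4038162 (minus strand).
Gstt1: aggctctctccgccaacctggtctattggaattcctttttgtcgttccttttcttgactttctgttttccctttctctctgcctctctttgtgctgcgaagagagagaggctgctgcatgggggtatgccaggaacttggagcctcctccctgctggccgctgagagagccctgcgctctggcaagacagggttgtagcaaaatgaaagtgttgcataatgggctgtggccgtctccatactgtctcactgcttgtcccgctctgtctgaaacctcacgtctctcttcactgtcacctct
Mgst1: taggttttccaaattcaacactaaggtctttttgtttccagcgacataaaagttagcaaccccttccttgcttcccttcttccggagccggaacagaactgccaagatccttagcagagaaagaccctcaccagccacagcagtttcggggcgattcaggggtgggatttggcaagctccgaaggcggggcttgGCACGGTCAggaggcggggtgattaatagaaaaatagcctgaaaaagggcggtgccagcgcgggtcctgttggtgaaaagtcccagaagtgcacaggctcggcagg
Gsta3: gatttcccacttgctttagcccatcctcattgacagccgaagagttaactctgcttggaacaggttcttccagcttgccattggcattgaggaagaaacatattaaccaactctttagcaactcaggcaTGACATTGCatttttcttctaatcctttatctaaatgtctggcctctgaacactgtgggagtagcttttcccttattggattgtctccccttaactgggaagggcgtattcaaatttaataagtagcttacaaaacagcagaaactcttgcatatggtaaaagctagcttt
Gstp1: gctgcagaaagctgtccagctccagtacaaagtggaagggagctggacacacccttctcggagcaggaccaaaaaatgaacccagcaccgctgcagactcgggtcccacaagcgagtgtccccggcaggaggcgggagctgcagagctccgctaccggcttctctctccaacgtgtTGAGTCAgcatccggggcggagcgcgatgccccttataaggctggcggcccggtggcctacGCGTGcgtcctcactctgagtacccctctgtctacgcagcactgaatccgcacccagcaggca

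The Gstt1 window held none of the 3 motifs. The printed Mgst1 window held the antioxidant response element core on the opposite strand, starting 56 bases before the start site. A second Mgst1 window, not printed, held none of the 3 motifs. The Gsta3 window held the antioxidant core 121 bases before the start site. The Gstp1 window held an AP-1 site 74 bases and a xenobiotic response element core 13 bases before the start site. Among the mu genes, which lie in a cluster on chromosome 3, the Gstm5 window held all 3 motifs, both windows of Gstm1 held only the xenobiotic core, and the windows of Gstm2 and Gstm4 held none. In all 32851 windows of the table, 12.4% held the antioxidant core, 32.4% the xenobiotic core and 7.81% the AP-1 site. A match is a run of letters and not a shown binding site, and no match says only that these letters are not in the window.

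All 10 genes and all 17 probes were above the negative control level in at least 4 arrays of a group. A probe passed the test, here also termed called, when its limma p-value adjusted over all probes was at most 0.05, its change was at least 1.5-fold and it was above the negative control level in at least 4 arrays of either group. A gene is given by its brightest probe. In the low dose group 6 of the 10 genes fell and none rose, where 3.05% of 13658 named genes were called lower and 2.21% higher. In the medium dose group 7 fell and none rose, beside 4.67% of 13421 genes called lower and 4.28% higher. In the high dose group 7 fell and none rose, beside 6.43% of 14048 genes called lower and 5.46% higher. Of the 17 probes, 9, 11 and 12 were called at the 3 doses in rising order, where 3.32%, 5.69% and 7.58% of all probes were called in either direction. The median log2 change of the 10 genes was -0.69, -0.79 and -0.92 in the same order, and that of all named genes tested was 0.0002, 0.0017 and 0.009. Without low dose replicate 1 the low dose count was 4 (Gsta3 and Gstm2 missed the test), and without low dose replicate 2 it was 6. The 3 comparisons share their control arrays, so their counts are not independent of one another. Every array of the dose lay below every control array for 2 of the 10 genes at the low dose (2.56% of all named genes), 5 at the medium dose (4.86%) and 7 at the high dose (5.7%).

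**Figure D1:**
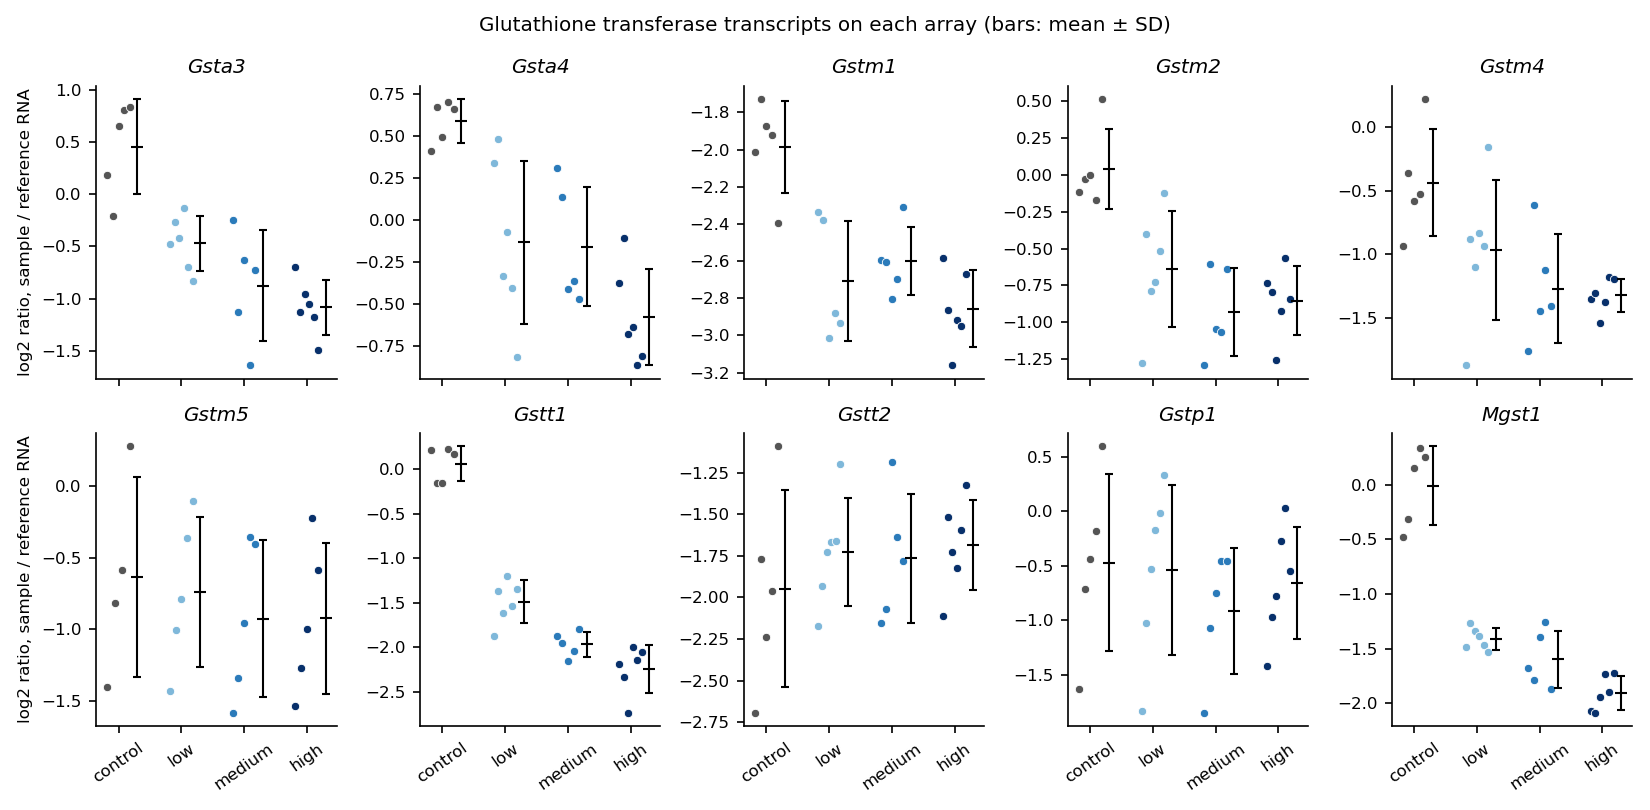
Level of each of the 10 genes on every array, by its brightest probe, in log2 of sample over reference RNA (vertical axis, with its own range in each panel) in the control, low, medium and high dose groups. Points are arrays and bars give the mean ± SD. For Gstt1 and Mgst1 all dose arrays lie below all control arrays, while for Gstm5, Gstt2 and Gstp1 the groups overlap.

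Of the theta class, Gstt1 fell at each dose and Gstt2 did not pass the test. Gstt1, which acts on small halogenated compounds, had the largest decrease of the 10 genes at each dose. Its log2 ratio was 0.22, -0.16, -0.15, 0.23 and 0.17 in control replicates 1 to 5. The control cells thus read close to the reference RNA. Low dose arrays ranged from -1.87 over a median of -1.45 to -1.19. The medium dose arrays read -1.87, -1.95, -2.16, -2.05 and -1.80. High dose arrays ranged from -2.74 over a median of -2.17 to -2.0. All 17 dose arrays lay at least 1 log2 unit below the lowest control array, and the high dose arrays all lay below all low dose arrays. The decrease was 2.94-fold at the low dose (log2 change -1.56 ± 0.11 (SE), adjusted p = 5.19e-08), 4.08-fold at the medium dose (-2.03 ± 0.11, adjusted p = 1.23e-09) and 4.97-fold at the high dose (-2.31 ± 0.11, adjusted p = 7.13e-11).

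Gstt2, the other theta enzyme, was read by 1 dim probe, whose signal was well above background on 17 of the 22 arrays and on 3 of the 5 control arrays. Its log2 ratio was -2.69, -1.77, -2.24, -1.96 and -1.09 in control replicates 1 to 5. The high dose arrays ranged from -2.11 over a median of -1.66 to -1.33, within the range of the controls. Its log2 change was 0.21 at the low dose, 0.18 at the medium dose and 0.25 at the high dose, and none of these passed the test. The 95% interval of the high dose change ran from -0.13 to 0.63. So near background a ratio understates change, and this interval does not cover that.

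Mgst1, the membrane enzyme that also reduces lipid hydroperoxides, showed the second largest decrease at each dose. Its log2 ratio was -0.48, -0.31, 0.15, 0.33 and 0.25 in control replicates 1 to 5. Control replicates 1 and 2, both on slide 1, were the lowest. In the low dose group it ran from -1.53 over a median of -1.43 to -1.26. The medium dose arrays read -1.67, -1.78, -1.39, -1.26 and -1.86. In the high dose group it ran from -2.08 over a median of -1.92 to -1.72. No dose array overlapped the controls. The decrease was 2.63-fold at the low dose (log2 change -1.39 ± 0.12 (SE), adjusted p = 4.99e-07), 3.00-fold at the medium dose (-1.58 ± 0.12, adjusted p = 8.26e-08) and 3.71-fold at the high dose (-1.89 ± 0.12, adjusted p = 2.22e-09). Its second probe gave log2 changes of -1.45, -1.61 and -1.86, each of which passed the test.

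Both alpha genes fell at all 3 doses. Gsta3, known in the mouse for the detoxification of aflatoxin epoxide, had log2 ratios of 0.19, -0.21, 0.66, 0.81 and 0.84 in control replicates 1 to 5. Here too the controls of slide 1 were the lowest. The values of the low dose ranged from -0.83 over a median of -0.45 to -0.13. The medium dose arrays read -0.25, -1.13, -0.63, -1.64 and -0.73. The values of the high dose ranged from -1.49 over a median of -1.09 to -0.70. Control replicate 2 lay within the range of the low dose, and no control array reached the range of the medium or high dose. The decrease was 1.86-fold at the low dose (log2 change -0.90 ± 0.23 (SE), adjusted p = 0.0303), 2.52-fold at the medium dose (-1.33 ± 0.23, adjusted p = 0.00104) and 2.85-fold at the high dose (-1.51 ± 0.23, adjusted p = 0.000139). Its second probe gave log2 changes of -0.97, -1.18 and -1.34, each of which passed the test, with no overlap with the controls at any dose. For the brightest probe the low dose call was lost when low dose replicate 1, 3, 5 or 6, control replicate 3, 4 or 5, or high dose replicate 5 was left out, where the log2 change was -0.89 to -0.74 and the adjusted p 0.0517 to 0.123. Median centring of the arrays also ended it, at a log2 change of -1.03, as did the log ratio of the scanner software, at -0.92.

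Gsta4, which conjugates the lipid peroxidation product 4-hydroxynonenal, had log2 ratios of 0.41, 0.67, 0.50, 0.70 and 0.66 in control replicates 1 to 5. Its probe is printed at 10 spots per array, whose median was used, and the controls were close together. Across the low dose arrays it ranged from -0.81 over a median of -0.20 to 0.48. The medium dose arrays read 0.31, 0.14, -0.41, -0.36 and -0.47. Across the high dose arrays it ranged from -0.86 over a median of -0.66 to -0.11. Replicates 1 and 2, both on slide 1, were the highest arrays of each dose group, and low dose replicate 2 was the only dose array within the range of the controls. The decrease was 1.59-fold at the low dose (log2 change -0.67 ± 0.14 (SE), adjusted p = 0.00782), 1.68-fold at the medium dose (-0.75 ± 0.14, adjusted p = 0.00236) and 2.16-fold at the high dose (-1.11 ± 0.14, adjusted p = 1.77e-05). The low dose change was under 1.5-fold without control replicate 5 or low dose replicate 6, at log2 changes of -0.54 in both cases. Median centring ended the call at the low (-0.76) and medium dose (-0.67), as did a fit with no slide term. The low dose call was also lost in a fit of only the groups compared and without slide 2, 3 or 4.

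Of the 4 mu genes, 2 fell at the low dose and 3 at the medium and high dose. Gstm2 had log2 ratios of -0.12, -0.03, -0.0049, -0.17 and 0.51 in control replicates 1 to 5. Control replicate 5 stood above the other controls. On low dose arrays it ran from -1.28 over a median of -0.62 to -0.12. The medium dose arrays read -1.29, -0.61, -1.04, -1.07 and -0.64. On high dose arrays it ran from -1.26 over a median of -0.82 to -0.57. All medium and high dose arrays and 5 of the 6 low dose arrays lay below all controls. The decrease was 1.64-fold at the low dose (log2 change -0.72 ± 0.15 (SE), adjusted p = 0.00764), 1.96-fold at the medium dose (-0.97 ± 0.15, adjusted p = 0.000407) and 1.91-fold at the high dose (-0.93 ± 0.15, adjusted p = 0.00027). Of its other probes, 1 passed the test at each dose and 1 at the medium and high dose, with log2 changes between -1.05 and -0.62. The low dose change was -0.58, under 1.5-fold, when low dose replicate 1 was left out. It also missed the test when taken from the scanner's own log ratio, at -0.61, and with no slide term, at -0.68.

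Gstm1, the most abundant mu enzyme of the liver, was low against the reference in every group, with log2 ratios of -2.01, -1.73, -1.87, -1.92 and -2.39 in control replicates 1 to 5. High dose arrays ranged from -3.16 over a median of -2.89 to -2.58, below all controls. The decrease was 1.65-fold at the low dose (log2 change -0.72 ± 0.14 (SE), 5 arrays, since 1 spot was marked as an outlier), 1.53-fold at the medium dose (-0.62 ± 0.14) and 1.80-fold at the high dose (-0.85 ± 0.14), with adjusted p of 0.00434, 0.0098 and 0.000308. The medium dose call was lost on leaving out control replicate 2, 3 or 4 or medium dose replicate 1 or 2, at log2 changes of -0.58 to -0.52. Median centring (log2 changes -0.90, -0.53 and -0.89) and the series matrix values (-0.67, -0.23 and -0.69) ended all 3 calls. A second probe had log2 changes of -0.90, -0.96 and -1.01 and passed only at the high dose (adjusted p = 0.0439).

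Gstm4, a further mu enzyme, had log2 ratios of -0.93, -0.36, -0.58, -0.52 and 0.22 in control replicates 1 to 5. Its low dose arrays ranged from -1.87 to -0.16, its medium dose arrays from -1.76 to -0.61, and its high dose arrays from -1.54 to -1.18. The high dose arrays alone lay all below the controls and were close together (SD 0.13, against 0.42 in the controls). The low dose change of -0.55 ± 0.22 (SE) missed the test (adjusted p = 0.234). The decrease was 1.78-fold at the medium dose (log2 change -0.83 ± 0.22, adjusted p = 0.0309) and 1.87-fold at the high dose (-0.91 ± 0.22, adjusted p = 0.0103). When replicate number replaced slide as the block of the fit, the low dose change was -0.62 (adjusted p = 0.0318) and passed. The medium dose call was lost on leaving out control replicate 2, 3 or 5 or medium dose replicate 1, 3, 4 or 5, where the log2 change was -0.87 to -0.66 and the adjusted p 0.0528 to 0.129, and also with median centring, the scanner log ratio, the series matrix values or no slide term. Its second probe had log2 changes of -0.39, -0.37 and -0.44, none of which passed, so the probes of Gstm4 differ on which side of the test they fall.

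Gstm5, a mu enzyme found mainly in brain and testis, was measured on 4 control arrays and on 5 arrays of each dose after spots marked as outliers were left out. Its control ratios ran from -1.40 to 0.28 and its high dose ratios from -1.54 to -0.22, so that the groups overlapped. The log2 changes of -0.24, -0.44 and -0.43 did not pass, and the 95% interval at the high dose ran from -0.70 to -0.15. The mu genes are close in sequence and the probe sequences were not used here, so a probe may also bind the transcript of a neighbour in the family.

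Gstp1, the pi enzyme and the main soluble glutathione transferase of many epithelia, had log2 ratios of -1.63, -0.71, -0.44, -0.18 and 0.59 in control replicates 1 to 5. The controls alone thus spread widely. In the low dose group it ran from -1.83 over a median of -0.36 to 0.33. The medium dose arrays read -1.85, -1.08, -0.75, -0.46 and -0.46. In the high dose group it ran from -1.42 over a median of -0.67 to 0.03. Replicate 1 was the lowest array of every group, and the groups overlapped. Its log2 changes of -0.19, -0.44 and -0.31 did not pass, with a 95% interval at the high dose from -0.73 to 0.11. The second probe had log2 changes of -0.51, -0.39 and -0.44, which also did not pass.

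**Figure D2:**
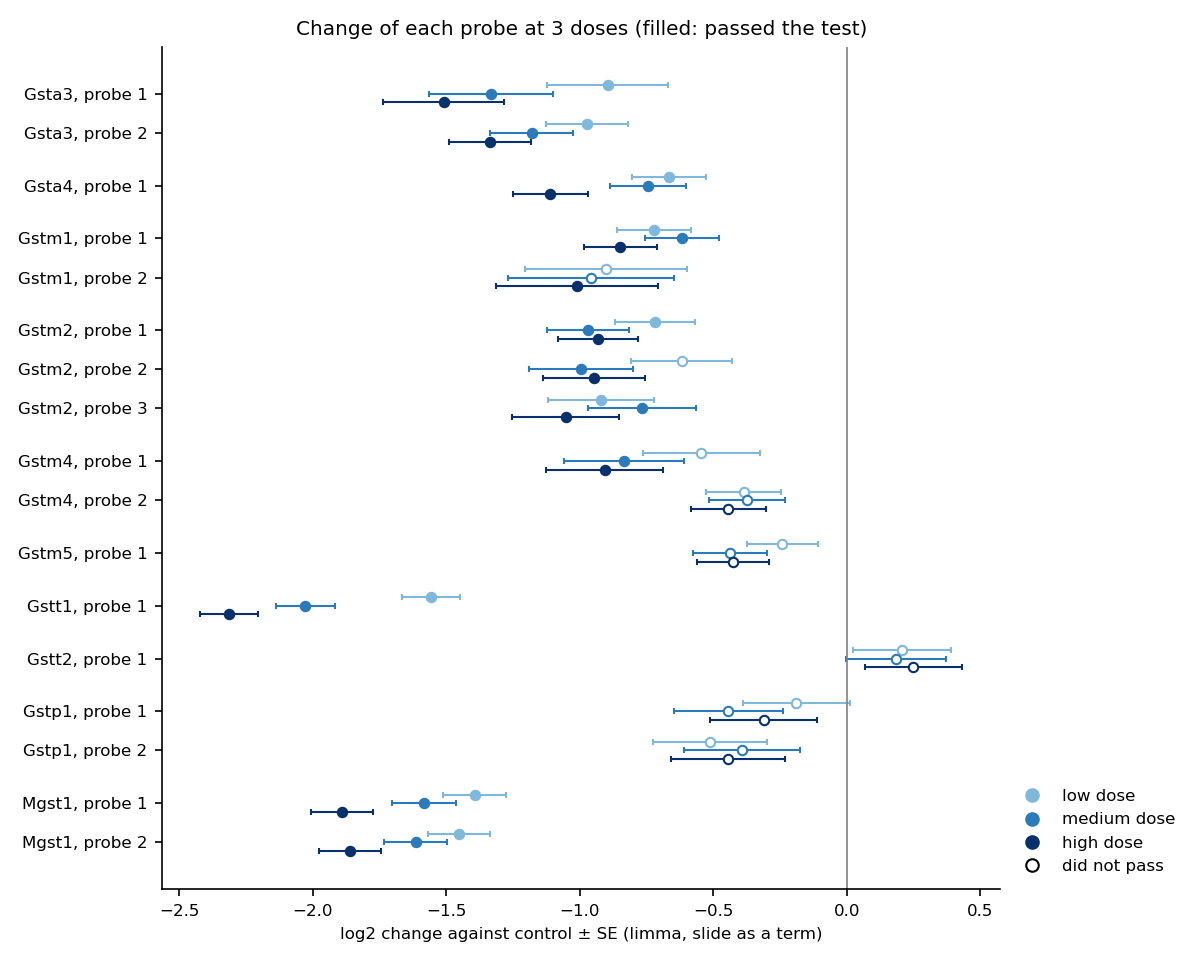
Log2 change against control (horizontal axis) of each of the 17 probes at the low, medium and high dose, with the standard error of the limma fit as bars. Probes of a gene are ordered by brightness. Filled points passed the test and open points did not. The 9, 11 and 12 probes that passed at the 3 doses all lie below 0.

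Whether members of 1 class changed unequally was tested on the difference of their log2 ratios within each array, by an exact two-sided permutation test over arrays, for 8 pairs at 3 doses with Benjamini-Hochberg adjustment over the 24 tests. Gstt1 minus Gstt2 was 2.01 ± 0.62 (SD, n = 5) in the controls and -0.56 ± 0.37 (SD, n = 6) at the high dose, a change of -2.57 (exact permutation p = 0.00216, adjusted 0.0259). The exact permutation p of 0.00216 is the smallest that 6 against 5 arrays allow. The Gstt2 probe lies near background, where its ratio understates change and a decrease could hardly show. The test therefore cannot tell an unequal change of the 2 genes from a probe near its floor. The sizes of these differences are uncertain by an amount the test does not cover. At the low dose the same difference was 0.24 ± 0.26 (SD, n = 6), a change of -1.77 with the same p-values. At the medium dose the change was -2.21, with the smallest p that 5 against 5 arrays allow (exact p = 0.00794, adjusted 0.0635). The other 21 tests had adjusted p of 0.238 or more. Among them was Gsta3 minus Gsta4, whose high dose change was -0.38 (exact p = 0.139, adjusted 0.332). With arrays exchanged only within slides, a choice made after seeing the data, none of the 24 tests passed: 4 slides allow no exact p below 0.0417, which the theta pair reached at each dose (adjusted 0.25). Within slides Gsta3 lay further below control than Gsta4 on 4 of 4 slides at each dose, with differences of -0.87 to -0.12 at the high dose, and Gstm2 further than Gstm5 on 3 of 3 slides at each dose, with differences of -0.84 to -0.40 at the high dose. No adjusted p of these pairs was below 0.25 in the permutation within slides. A test with fewer arrays has a larger smallest p, and both theta calls were lost in 16 of 22 tests that left out 1 array, namely without any 1 of the low dose or high dose arrays or of control replicates 1, 3, 4 and 5, where the changes were -1.96 to -1.55 at the low dose and -2.76 to -2.35 at the high dose. Without control replicate 2 there were 4 calls, the theta pair at all 3 doses and Gsta3 minus Gsta4 at the high dose.

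Dose groups were also compared directly. Gstt1 was 1.69-fold lower at the high than at the low dose (log2 change -0.76 ± 0.10 (SE), adjusted p = 0.0029), where 0.371% of 14281 named genes were called lower. All 6 high dose arrays lay below all 6 low dose arrays, as was so for 0.532% of the named genes. It was the only one of the 10 genes called between doses. The call was not reached with median centring, at a log2 change of -0.64, or without slide 3, at -0.68. Mgst1 was lower at the high than at the low dose on all 6 arrays, but the change of -0.50 ± 0.11 was under 1.5-fold and had an adjusted p of 0.059. Between neighbouring doses, medium against low and high against medium, none of the 10 genes and none of all named genes (0%) was called by limma. Of 55681 probes, 3219 had an unadjusted limma p under 0.05 between the medium and low dose and 2330 between the high and medium dose. Such a p arises by chance at a rate of 0.05, so no difference is read from these counts.

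**Figure D3:**
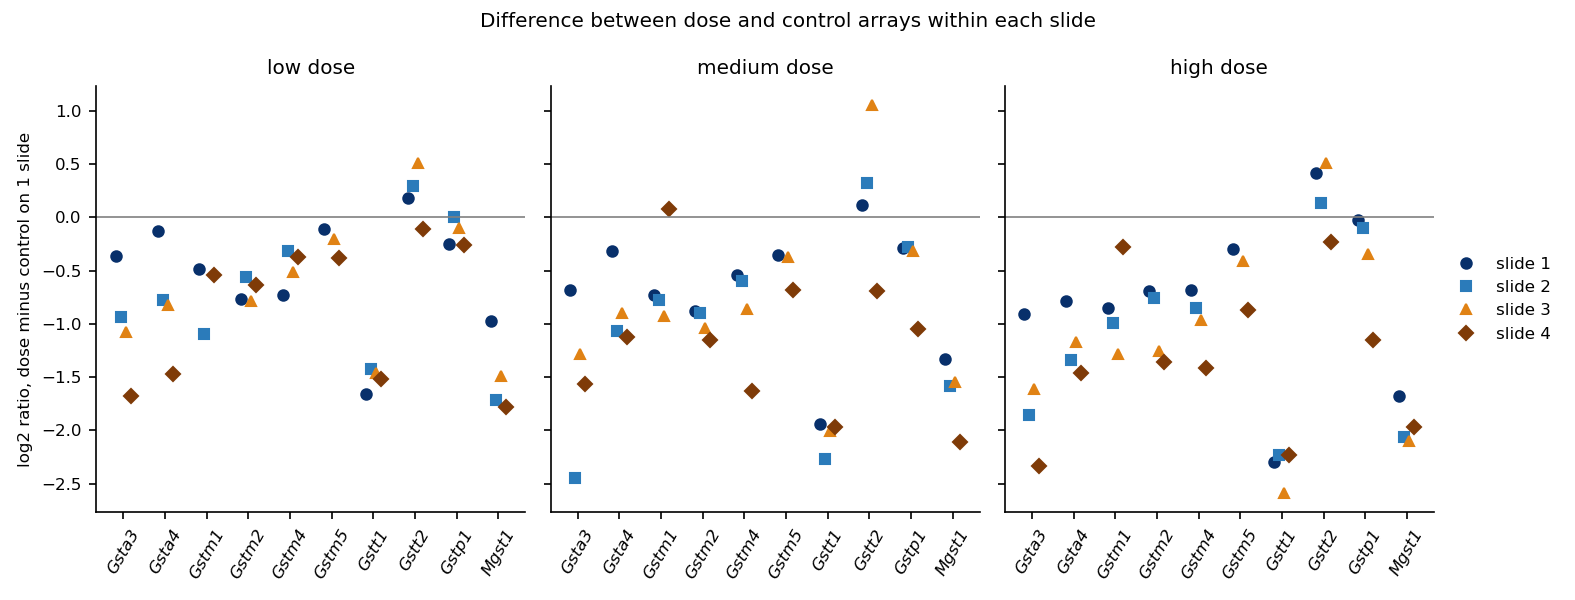
Difference of log2 ratio between dose and control arrays of the same slide (vertical axis) for each gene at the low, medium and high dose. Slide 1 had 2 arrays of each group and slides 2 to 4 had 1, and slide 5 had no control array. Gstt1 and Mgst1 lie below 0 on all 4 slides at each dose, and Gsta3 and Gsta4 are nearest to 0 on slide 1.

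Within slides the direction held for Gsta3, Gsta4, Gstm2, Gstm4, Gstt1 and Mgst1 on 4 of 4 slides at every dose. Of the genes not called, Gstm5 lay below control on all 3 slides with a value at each dose. Gstp1 did so on 3 of 4 slides at the low dose and on 4 of 4 at the medium and high dose. The share of all named genes with such a pattern was not computed. The difference of Gstt1 varied little between slides, from -2.59 to -2.23 at the high dose, and that of Mgst1 lay between -2.10 and -1.68. Gsta3 was more uneven, from -0.36 on slide 1 to -1.67 on slide 4 in low dose arrays, and from -0.90 to -2.33 on the same slides in high dose arrays. Gsta4 differed by only -0.13 on slide 1 at the low dose, against -1.47 on slide 4. Gstm1 was 0.08 higher than control on slide 4 at the medium dose and lower on the other 3 slides. Gstt2 was above control on 3 of 4 slides at each dose.

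Genes listed as mesenchyme markers also fell in these cultures of a single line. Whether the cultures held a second cell type was not tested. Of the 8 mesenchyme markers listed, 5 fell at the low dose and 6 at the medium and high dose, with a median log2 change of -0.80, -1.16 and -1.43. Beside these counts, 3.05%, 4.67% and 6.43% of all named genes were called lower at the low, medium and high dose. The mean log2 ratio of the 7 markers with a value on every array, all but Vim, ran from 0.14 to 0.55 in the control arrays, from -1.18 to -0.19 at the low dose, from -1.22 to -0.79 at the medium dose and from -1.25 to -0.84 at the high dose. Vim, the intermediate filament of mesenchymal cells, had a log2 change of 0.14 at the high dose and did not pass, while the proteoglycan Dcn had one of -2.27. No marker of the list was at the level of the negative controls. Of the 6 epithelial markers 4 were detected and none was called at any dose. The mean log2 ratio of Krt8, Krt19 and Cldn7, which had a value on every array, ran from -4.39 to -3.18 in the controls and from -4.38 to -3.63 at the high dose. Of 5 markers of alveolar type I cells on the array, 4 were detected at the high dose, and Hopx fell at all 3 doses, with log2 changes of -1.55, -1.62 and -2.19. Of 9 markers of alveolar type II cells, 5 were detected at the high dose, and Lamp3 rose at the medium and high dose, with log2 changes of 0.75 and 0.90, while its low dose change of 0.59 did not pass. Of 5 leukocyte markers none was called at any dose. The part of the mesenchyme and alveolar markers in the decrease of the glutathione transferases was not tested.

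Glutathione transferases outside the 10 went both ways. Of 20 further genes listed, 16 were detected at the high dose, of which 4 fell and 2 rose. At that dose 6.43% of all named genes were called lower and 5.46% higher. The mu gene Gstm3 fell by 1.06 on the log2 scale, the microsomal genes Mgst2 and Mgst3 by 0.87 and 0.75 and the theta gene Gstt3 by 0.63. The omega genes Gsto1 and Gsto2, which reduce dehydroascorbate and thiol adducts more than they conjugate, rose by 1.97 and 3.46. The median log2 change of the 16 detected genes was -0.05, beside -0.92 for the 10 members. Members and lists were chosen with earlier results of these data known, so this contrast is a description and not a test. The call of Gstt3 was lost without high dose replicate 2, at -0.58.

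Genes that make and break down glutathione rose or did not pass the test. Of 17 listed, 15 were detected at the high dose, of which 4 rose and none fell. Beside them, 5.46% of all named genes were called higher and 6.43% lower at that dose. Chac1, which cleaves glutathione, rose by 2.37 on the log2 scale, and Slc3a2, a subunit of the cystine transporter, by 0.92. Ggt1, which degrades glutathione outside the cell, rose by 0.91 (5 high dose and 4 control arrays with a value), and Slc7a11, the other subunit of the cystine transporter, rose by 0.67, a call that was lost without control replicate 2, at 0.55. Gclc and Gclm, the subunits of the rate-limiting enzyme of glutathione synthesis, had high dose log2 changes of 0.57 and -0.25 and were not called, although Gclc came just under 1.5-fold (adjusted p = 0.00726) and passed without control replicate 1, 3 or 5 or high dose replicate 3 or 6, at 0.59 to 0.64.

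Of 21 genes of glutathione peroxidases and reduction, 19 were detected at the high dose, of which Idh1 and Idh2 fell and Esd rose. These calls stand beside 6.43% of all named genes called lower and 5.46% called higher at that dose. Idh1, a cytosolic source of the NADPH that keeps glutathione reduced, fell by 1.34 on the log2 scale (4 control arrays with a value). Idh2, its mitochondrial relative, fell by 0.62, a call that was lost when control replicate 1, 2, 3 or 4, high dose replicate 2, 3, 4 or 5, low dose replicate 5 or medium dose replicate 3 was left out, at -0.63 to -0.47 (adjusted p = 0.0512 to 0.132). Esd, the enzyme that frees glutathione from its formyl adduct, rose by 1.10. Gsr, the reductase of oxidised glutathione, had a log2 change of -0.43 and was not called. Of 9 export and mercapturate genes on the array 8 were detected, and only Abcc3, a pump for conjugates, was called, with a log2 change of -1.64 at the high dose.

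**Figure D4:**
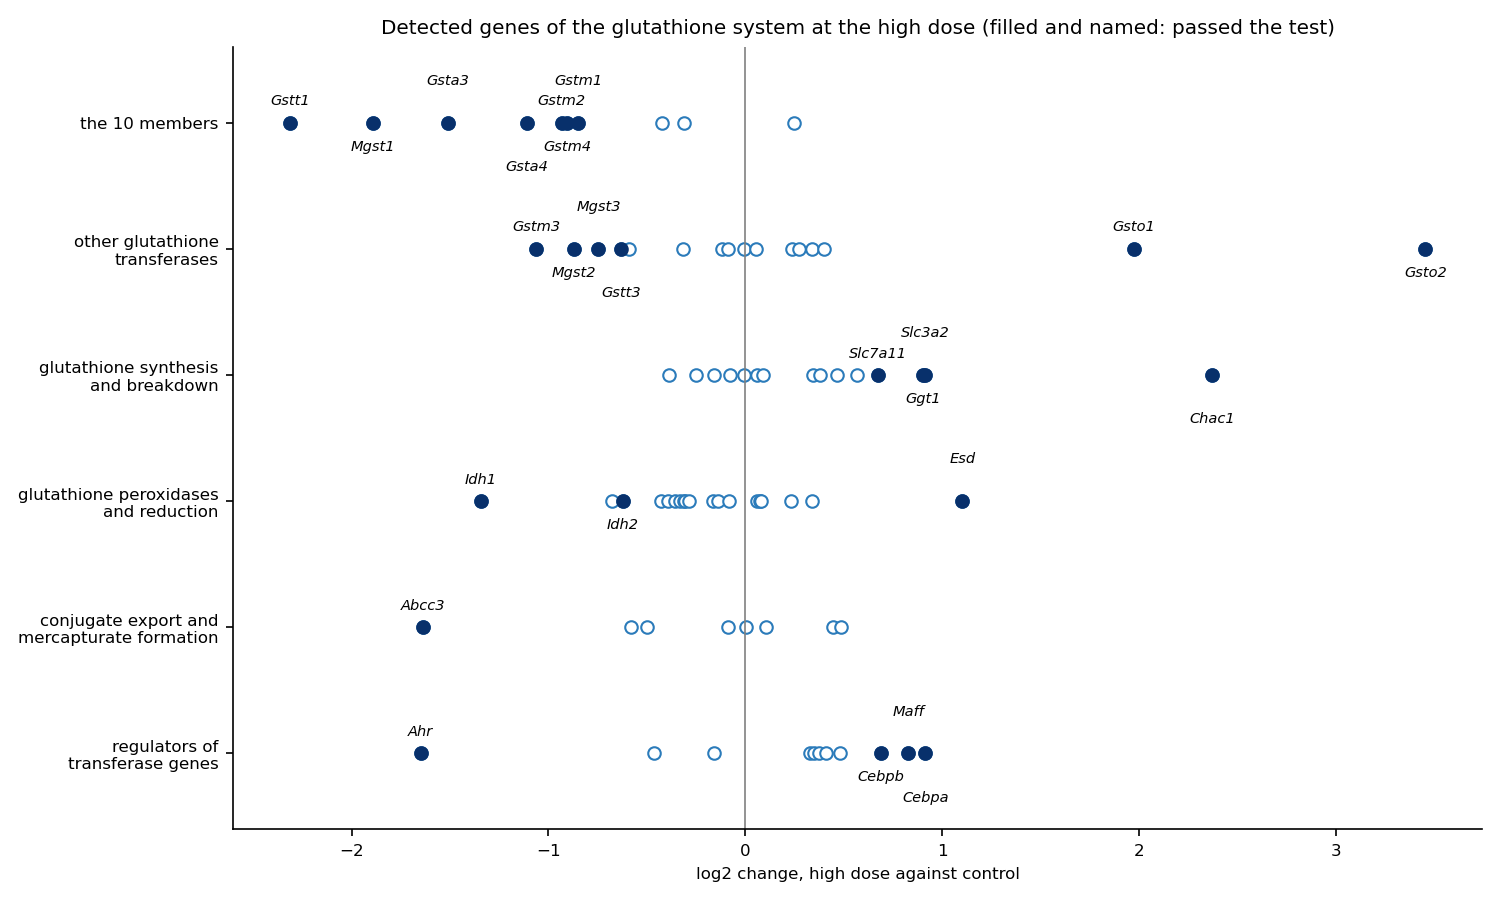
Log2 change at the high dose against control (horizontal axis) of each detected gene of the 10 members and of 5 lists of the glutathione system (rows). Each point is a gene by its brightest probe, and filled points passed the test and carry their names. The 7 called members all lie at or below -0.85, while called genes of the other lists lie on both sides of 0.

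Among 15 regulators known to act on transferase genes, 11 were detected at the high dose, of which 3 rose and 1 fell. The shares of all named genes at this dose were 5.46% called higher and 6.43% called lower. Ahr, the aryl hydrocarbon receptor, fell by 1.65 on the log2 scale, with all 6 high dose arrays below all controls. Cebpa and Cebpb, which bind promoters of alpha transferase genes, rose by 0.92 and 0.69, and Maff, a small partner of NRF2, rose by 0.83. Nfe2l2, which encodes NRF2, and its inhibitor Keap1 had log2 changes of 0.41 and -0.46 and were not called.

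The genes with the most similar pattern were sought for 1 member of each class with a called probe, by Pearson's r over the 22 arrays after slide means were removed, among 12822 genes with a value on every array. For Gstt1 these included Zcchc24 (r = 0.988) and Cfhr2 (r = 0.984). For Mgst1 they were Cd248 (r = 0.974), Cfhr2 (r = 0.969) and Tgfb2 (r = 0.965). Gsta3 came closest to C1ra (r = 0.933), Glis2 (r = 0.918) and C1s2 (r = 0.915), of which C1ra and C1s2 are proteases of the complement pathway. For Gstm2 the genes were Ppp1r16a (r = 0.967), Evc (r = 0.966) and Cacna1g (r = 0.961). The arrays share the dose groups, the reference RNA and the hybridisations, so these values describe likeness and carry no p-value.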

How the data were processed

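For every array the authors deposited the scanner output, which holds the median pixel intensity per spot and channel and a log10 ratio of the scanner software (Feature Extraction 10.7.3.1), beside a series matrix of log2 ratios whose normalization is not given in the sources used here. From the deposited intensity, without background subtraction, log2 of Cy5 over Cy3 was taken, outlier spots were set to missing, and loess was applied to each array. Detection required a Cy5 intensity above the trimmed mean (5%) of the 308 negative control spots by more than 3 trimmed SDs. The model (limma 3.58.1, R 4.3.3) held group and slide for all 22 arrays, with Benjamini-Hochberg adjustment across 55681 probes. It was also run on simulated data, whose noise was independent between arrays apart from slide. Deviations shared by same-numbered arrays were thus not covered. Accessions were named through a RefSeq table of GRCm38.p6. All 10 members are reported with every probe, and a gene is given by its brightest detected probe. Of other lists at most the 3 largest called rises and falls at the high dose are named, while Gstt3, Slc7a11, Gclc, Gclm, Gsr, Nfe2l2, Keap1, Vim and the detected epithelial markers were named after their values were seen. Members and lists were chosen with earlier results of these data known. Same-numbered arrays of different groups deviated together from their group means (31 pairs, r from 0.187 to 0.819). Arrays of different groups on the same slide did so too (43 pairs, r from 0.0627 to 0.819). Most same-numbered arrays shared a slide, so these ranges do not separate pairing by number from pairing by slide. Slide 1 held replicates 1 and 2 of every group, and pairing by number within it was not tested. There the brightest Gstp1 probe read lower on replicate 1 than on replicate 2 in every group, while the Gsta4 probe did not. The main fit used slide, and the replicate number as a block was an alternative. No 2 arrays were duplicates (highest correlation 0.961). Figures were drawn with matplotlib 3.10.9. Of the genes most similar in pattern to Gstt1, 1 is not reported here.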

Additional observations from a re-analysis of the deposited data

Results flagged for a closer look

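In 3 of 68 groups of 4 to 6 arrays, each taken for 1 probe, the lowest or highest array lay further from the nearest other array than Dixon's 95% limit allows, and chance flags about 1 in 20 groups. The second Gstm1 probe read -3.54 on medium dose replicate 1, where the next lowest medium dose array read -2.19. The brightest Gstm2 probe read 0.51 on control replicate 5, above the next highest control array at -0.0049. Another Gstm2 probe read -1.68 on low dose replicate 1, where the next lowest low dose array read -0.65.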

How the results depend on the processing

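No member changed direction while called, over 42 alternatives, and Gstt1 and Mgst1 fell at the high dose in each of them. Of the counts of 6, 7 and 7 members called lower at the low, medium and high dose, a 2-fold threshold left 2, 3 and 4. Median centring left 3 and 4 at the low and medium dose. A fit of only the groups compared, and a fit without slide 3, left 3 at the low dose. Slide 1 alone, with 2 arrays a group, left 0, 1 and 2. The 1 member called between the high and low dose (Gstt1) became 0 with a 2-fold threshold, median centring, slide 1 alone or without slide 3. With each array left out in turn the counts of members called lower were 4 to 6, 5 to 7 and 7 to 7, the medium against low and high against medium counts stayed at 0, the high against low count at 1, and the 2 calls between members of a class ranged from 0 to 4. With arrays exchanged only within slides, an alternative chosen after seeing the data, these 2 calls became 0. The lowest count at the low dose, 4, came without control replicate 5, low dose replicate 1 or low dose replicate 6. With the replicate block in place of slide, counts were 7, 7 and 7, and Gstm4 at the low dose was the only member call that changed. The medium dose change of Gstt2, not called, had the opposite sign in 1 alternative (-0.03). Other settings, among them normexp background correction and slide as a random block, left these counts within 1.5 times. Dim probes such as that of Gstt2 lie near background, where a ratio understates change.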
